A study of Mus musculus with 7 samples.

Results

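A set of 9 genes that carry or restrain the canonical WNT response were examined for open chromatin in embryonic facial ectoderm and in postnatal teeth of the mouse. They were the transcription factor genes Lef1, Tcf7, Tcf7l1 and Tcf7l2, the intracellular feedback gene Axin2, the secreted antagonists Dkk1, Dkk2 and Sostdc1, and the secreted WNT enhancer Rspo3. These 9 genes were chosen by name out of 20661 autosomal protein-coding genes, and their data are all ATAC-seq peaks inside the gene or within 50 kb of it. In ATAC-seq a transposase cuts and tags accessible DNA, and a peak is a site where the tagged ends pile up. The 7 libraries held 645 such peaks, which merged into 182 regions when peaks sharing at least 1 bp were joined, out of 128642 autosomal regions.

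The study compared 5 groups. Ectoderm of the first pharyngeal arches, from which the jaw epithelium and the tooth epithelium derive, was peeled from the mesenchyme after Dispase II at embryonic day 11.5 (2 libraries). Sox2-positive cells were sorted from the labial cervical loop, the epithelial stem cell niche of the lower incisor, at postnatal day 2 in Sox2-GFP mice, whose GFP follows the endogenous Sox2 promoter (2 libraries). The sort therefore took cells by reporter and not by a lineage test. Lower incisor, lower first molar and upper first molar were each taken whole at postnatal day 2, with a single library per tooth, and hold epithelium and mesenchyme together. The labels do not say whether replicates came from separate animals, and name no strain or sex.

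In canonical WNT signalling a WNT ligand stabilises beta-catenin, which enters the nucleus and binds the TCF/LEF proteins on DNA. LEF1 and TCF7 mostly activate targets, TCF7L1 is known mainly as a repressor that beta-catenin relieves, and TCF7L2 can do either. Axin2 and Dkk1 are themselves WNT targets that dampen the signal, and in teeth Lef1 is needed for development past the bud stage, while loss of Sostdc1 gives extra teeth.

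The lists held 82427 and 50748 peaks on placed chromosomes for ectoderm, 42558 and 38973 for the sorted cells, 63003 in incisor, 69960 in lower molar and 68266 in upper molar. Peak lists carry no read counts, so depth is unknown and a missing peak is a site that did not pass the caller in that list. Peak counts at the 9 genes are therefore given for the full lists and again for the 38000 most significant autosomal peaks per list ("equal lists"). This cut kept 47.0% and 76.4% of autosomal peaks in the ectoderm lists and 90.8% and 99.1% in the Sox2-positive lists. In whole teeth it kept 55.2% to 61.2%. A site without a peak in an equal list can thus still have one in the full list, most of all in ectoderm replicate 1. With 2 libraries against 2 an exact permutation test cannot give a two-sided p under 0.333, so groups are compared by whether their libraries overlap. Beside this stands the share of genes or regions for which the same holds. For peak counts within 50 kb the share is over genes with a peak in at least 1 library, 18675 on full lists and 18155 on equal lists. The epithelial markers Krt14, Krt5, Cdh1 and Epcam had a gene-start peak in every full list, and Trp63 had one in none. Such a peak lay within 1 kb of a listed start, or of either gene end where no start was listed. Starts not listed were not examined, so Trp63 may be open at a start that was not covered. On equal lists Epcam lost its peak in incisor. Mesenchymal markers were open too: 4 to 5 of 6 had a start peak in the ectoderm libraries, 5 of 6 in both Sox2-positive libraries and 5 to 6 of 6 in whole teeth. On equal lists the ectoderm libraries had 2 and 4, both Sox2-positive libraries 5, incisor 5 and both molars 3. Ameloblast markers had 1 of 4 in each ectoderm library and in incisor, 2 in each Sox2-positive library and in lower molar, and 3 in upper molar. Endothelial markers had 1 to 2 of 4 and blood markers 1 to 2 of 4. On equal lists 3 autosomal ameloblast markers remained, with 2 open in each Sox2-positive library and 1 in every other library. Endothelial markers then had 1 of 4 in each ectoderm and Sox2-positive library and 0 in whole teeth, and blood markers were unchanged. Start peaks at such genes do not show expression, and the part of other cell types in the results below was not tested. In these bulk samples, fewer cells with an open site and less opening per cell cannot be told apart.

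RefSeq sequences (GRCm38.p6) of the 250 bases before a transcription start were taken for 7 of the 9 genes, which have 12 listed starts, and searched for CTTTG, the core that TCF/LEF proteins bind, on both strands (CAAAG on the other strand). Capitals mark these letters. The first 4 sequences are Lef1 and Dkk2 starts at which the presence or the extent of peaks differed between libraries, and the last 2 show feedback genes with many matches and with none.

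Lef1 first start, chr3:131110047-131110296, plus strand: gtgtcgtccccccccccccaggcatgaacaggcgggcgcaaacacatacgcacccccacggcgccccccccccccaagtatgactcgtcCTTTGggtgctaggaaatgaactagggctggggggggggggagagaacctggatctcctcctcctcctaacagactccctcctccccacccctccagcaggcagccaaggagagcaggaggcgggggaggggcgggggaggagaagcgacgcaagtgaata
Lef1 start at base 131112791, chr3:131112541-131112790, plus strand: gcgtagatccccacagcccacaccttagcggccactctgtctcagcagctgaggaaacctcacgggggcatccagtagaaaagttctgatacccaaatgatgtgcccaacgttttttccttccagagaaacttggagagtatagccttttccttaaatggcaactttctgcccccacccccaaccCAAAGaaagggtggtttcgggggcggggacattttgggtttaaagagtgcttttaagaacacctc
Lef1 internal start, chr3:131156044-131156293, plus strand: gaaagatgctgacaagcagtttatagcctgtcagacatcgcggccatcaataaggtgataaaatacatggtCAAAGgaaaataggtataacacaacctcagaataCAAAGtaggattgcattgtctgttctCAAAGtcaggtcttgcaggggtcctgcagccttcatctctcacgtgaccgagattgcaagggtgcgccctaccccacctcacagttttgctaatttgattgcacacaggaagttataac
Dkk2 start, chr3:132085042-132085291, plus strand: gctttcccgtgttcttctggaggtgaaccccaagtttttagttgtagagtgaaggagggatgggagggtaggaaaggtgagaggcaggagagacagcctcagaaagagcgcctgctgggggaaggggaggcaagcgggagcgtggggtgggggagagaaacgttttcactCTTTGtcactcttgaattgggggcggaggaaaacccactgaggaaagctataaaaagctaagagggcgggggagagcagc
Dkk1 start, chr19:30549497-30549746, minus strand: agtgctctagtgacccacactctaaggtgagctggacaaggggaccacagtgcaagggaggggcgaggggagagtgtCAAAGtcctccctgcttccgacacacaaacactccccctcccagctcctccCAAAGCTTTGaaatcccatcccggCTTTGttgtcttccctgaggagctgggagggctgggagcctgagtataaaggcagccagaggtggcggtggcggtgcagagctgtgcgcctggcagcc
Axin2 start, chr11:108920099-108920348, plus strand: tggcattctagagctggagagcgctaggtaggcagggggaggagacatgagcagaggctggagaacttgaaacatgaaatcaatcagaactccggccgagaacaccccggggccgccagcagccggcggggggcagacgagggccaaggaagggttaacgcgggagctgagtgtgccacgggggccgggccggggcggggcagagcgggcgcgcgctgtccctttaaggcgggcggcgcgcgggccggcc

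The Dkk1 window held 4 matches, with first bases 173, 122, 117 and 98 bases before the start, 2 of them adjoining on opposite strands. The Lef1 internal window held 3, at 179, 145 and 119 bases before its start. The Axin2 window held 0, as did both windows of Tcf7. The core is short: 48.6% of 32851 RefSeq promoter windows of this length held it. The longer CTTTGAT, also searched on both strands and found in 3.21% of the windows, was in 0 of the 12. No genome sequence was used here, so the distal regions were not searched.

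Lef1, the factor needed for early tooth development, had more of its window under peaks in both ectoderm libraries than in any postnatal library. The gene (GRCm38 chr3:131110297-131224357, plus strand) had 21 and 13 peaks within 50 kb in the ectoderm libraries, 9 and 7 in the Sox2-positive libraries, 9 in incisor, 14 in lower molar and 17 in upper molar. The ectoderm mean was 17.0 ± 5.66 and the Sox2-positive mean 8.0 ± 1.41 (SD, n = 2 each), with no overlap between these groups, while both molars lay within the ectoderm range. Equal lists gave 10 and 13 against 6 and 7, again without overlap, and 7 for incisor, 6 for lower and 8 for upper molar, so that both ectoderm libraries stood above all 5 postnatal ones. Ectoderm peaks covered 14.9 and 11.0 kb of the window, Sox2-positive peaks 4.71 and 4.25 kb, incisor peaks 5.18 kb, and molar peaks 8.41 and 10.5 kb. These counts and lengths include sites in the neighbouring gene Hadh. On equal lists chr3:131237658-131238312 and chr3:131250540-131251332 overlapped Hadh and had peaks in both ectoderm libraries and in no postnatal library.

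The Lef1 start region (chr3:131109308-131112830) had a peak in all 7 libraries, but its parts differed. In ectoderm, peaks of 1709 and 1932 bp lay across the first start. In Sox2-positive replicate 1, incisor and both molars the peak over that start was 567 to 584 bp wide, and Sox2-positive replicate 2 had none there. On equal lists a peak overlapped the 250 bases before the first start, by at least 1 bp, in both ectoderm libraries and in 0 of the 5 postnatal ones, a pattern found in 2.42% of all promoter windows. The 250 bases before the start at 131112791 were overlapped in all 7 libraries on full and on equal lists, as in 37.2% and 34.5% of windows. The postnatal peaks reached only into the first part of that window, ending between bases 131112565 and 131112617 and so before its core match, while the ectoderm peaks ran to bases 131112830 and 131112828. The internal start window, with its 3 core matches, was overlapped in both ectoderm libraries and in no postnatal library on both kinds of list, which held for 2.8% of windows on full lists. The windows overlapped in both ectoderm and neither Sox2-positive library, whatever the whole teeth showed, made up 5.16% on full lists and 3.2% on equal lists. A region around that start (chr3:131155668-131156904) also had peaks beside the window in Sox2-positive replicate 1 and both molars.

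Within Lef1 the libraries differed in which region was strongest, and so did the replicates of ectoderm and those of Sox2-positive cells. The best ranked ectoderm-only region, meaning one with a peak in both ectoderm and neither Sox2-positive library, was chr3:131142899-131144184, 32.6 kb inside the gene. Its peak signals, the authors' own values that rank peaks within a list only, were 3446 and 2085 in ectoderm, and upper molar had a peak at 200.3, close to the lowest signal in any list. A pair of regions deeper in the gene had a peak in every library. The first, chr3:131177431-131179366, joined 2 sites. Both ectoderm lists had a peak (743 and 430) at the first site, ending by base 131178250, and none at the second. Separate peaks at the 2 sites had signals of 729 and 242 in Sox2-positive replicate 1, 653 and 1049 in replicate 2, and 757 and 876 in incisor. In each molar 1 peak spanned both sites, at 2405 (lower) and 2463 (upper), and this was the strongest region of the window. At chr3:131213961-131214698 the signals were 483 and 395 in ectoderm and 902 and 609 in the sorted cells. The whole teeth had 1341 (incisor), 2129 (lower molar) and 1906 (upper molar) there. These 2 regions were singled out after their values were seen. The single Sox2-positive-only region of Lef1, chr3:131208439-131208930, had signals of 225 and 390 and was also in incisor and lower molar. The best ranked region in all 7 libraries away from the start, chr3:131271147-131272621, overlapped an end of the neighbouring gene Hadh.

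Genes whose peak counts most resembled those of Lef1 over the 7 equal lists were Trub2, Csrnp1 and Snx21. Their distances from Lef1 on the log2(count + 1) scale were 0.34, 0.35 and 0.41, against a median of 2.83 over 20651 genes.

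**Figure D1:**
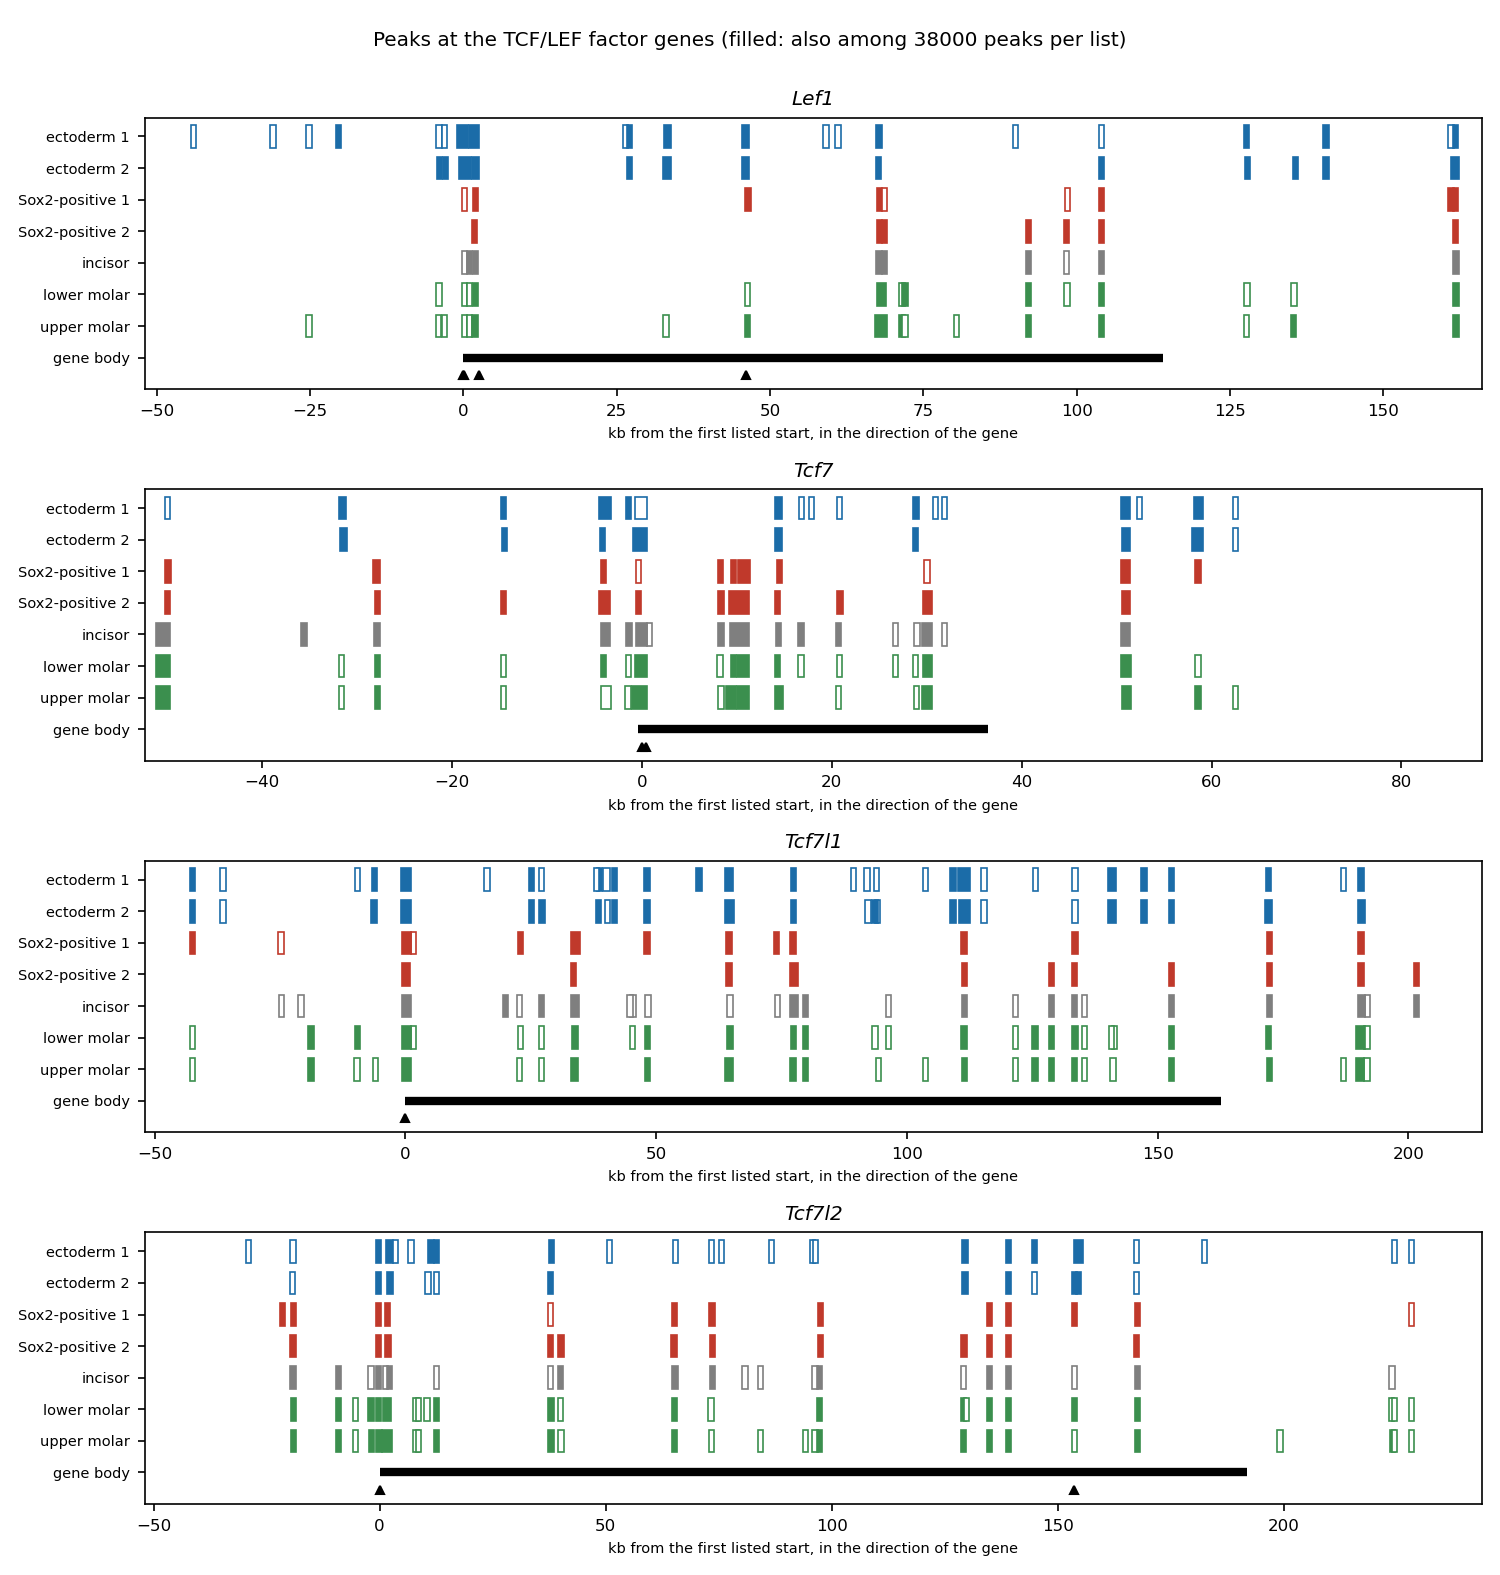
Peaks of each library at Lef1, Tcf7, Tcf7l1 and Tcf7l2 by distance in kb from the first listed start, in the direction of the gene; filled boxes are peaks also in the equal lists, open boxes are in the full list only, the bar is the gene body and triangles are listed starts. Narrow peaks are drawn at a minimum width. The region that starts 8.87 kb inside Tcf7 is present in all 5 postnatal libraries and in neither ectoderm library.

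Tcf7 (chr11:52246527-52283383, minus strand), which encodes TCF1, had no excess of peaks in ectoderm at equal list length. Full lists gave 17 and 9 peaks in ectoderm, 11 and 11 in sorted Sox2-positive cells, 17 in incisor, 18 in lower molar and 17 in upper molar, so that the groups overlapped. Equal lists gave 8 and 8 in ectoderm against 9 and 11 in Sox2-positive cells, with 13 in incisor and 9 in each molar. All 5 postnatal libraries then had 1 to 5 more peaks than either ectoderm library. Counted as merged regions, Sox2-positive replicate 1 and both molars had 8, the same as each ectoderm library, while Sox2-positive replicate 2 had 11 and incisor 13. Equal-list peaks covered 6.13 and 6.11 kb in ectoderm and 6.0 and 8.02 kb in the sorted cells, so coverage overlapped.

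Tcf7 held 4 of the 10 Sox2-positive-only regions of the whole gene set on full lists and 4 of 16 on equal lists. On equal lists Tcf7l2 held more, 6 of the 16. Tcf7 had 24 regions in all on full lists and 17 on equal lists. Sox2-positive-only regions made up 5.9% and 12% of all autosomal regions. On full lists each of the 4 was also open in all 3 whole teeth. The best ranked was chr11:52271631-52274148, 8.87 kb inside the gene and 2518 bp wide. Its signals were 2677 and 3664 in Sox2-positive cells, 5896 in incisor, 3459 in lower molar and 3169 in upper molar, and it was the strongest region of the Tcf7 window in each of these 5 lists. Neither ectoderm list had a peak there. Another, chr11:52310557-52311299, lay upstream, 27.5 kb before the start with signals of 415 and 706 in Sox2-positive cells and 1823 in incisor. In both ectoderm lists the strongest region was instead chr11:52223940-52225062, beyond the far end of the gene, with signals of 3256 and 2817. Sox2-positive replicate 1 had a peak of 430 there, lower molar one of 499 and upper molar one of 756, while Sox2-positive replicate 2 and incisor had none. The best ranked ectoderm-only region, chr11:52314020-52314914, lay 31.0 kb upstream with signals of 861 and 636, and both molars had a peak there as well. The start region chr11:52282442-52284086 had a peak in all 7 full lists and in 5 equal lists. The best ranked region shared by all 7 away from the start, chr11:52231485-52232509, overlapped the neighbouring gene Skp1.

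Tcf7l1 (chr6:72626371-72789045, minus strand), which encodes the TCF3 repressor, held the most peaks of the 9 genes summed over the libraries, though not in Sox2-positive replicate 2, where Tcf7l2 had more, and in upper molar the 2 genes were level. It had 31 and 24 in ectoderm, 14 and 11 in sorted Sox2-positive cells, 25 in incisor, 27 in lower molar and 26 in upper molar. The mean was 27.5 ± 4.95 for ectoderm against 12.5 ± 2.12 for the sorted cells (SD, n = 2 each), and the groups did not overlap. They stayed apart on equal lists, at 17 and 18 against 12 and 11, with 13 to 15 in whole teeth. Of its 47 regions, 13 were ectoderm-only and 1 was Sox2-positive-only, against 17.9% and 5.9% of all autosomal regions. On equal lists these were 7 and 2 of 30, against 15.7% and 12%.

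The strongest Tcf7l1 region changed between the groups although it was open in every library. In both ectoderm lists it was chr6:72676364-72678935, 110 kb inside the gene, with signals of 6124 and 5136. The postnatal lists held the same region with signals of 1563 and 711 in Sox2-positive cells, 790 in incisor, 1976 in lower molar and 1997 in upper molar. In both Sox2-positive lists and in incisor the strongest was chr6:72710744-72712420, 76.6 kb inside, with signals of 3204, 4401 and 4849. The ectoderm signals there were 1669 and 494. In both molars the start region chr6:72787848-72789939 came first, at 4525 and 4403. The Sox2-positive-only region chr6:72754297-72756055, 33.0 kb inside, had signals of 1969 and 1049 and was open in all 3 whole teeth. The best ranked ectoderm-only region, chr6:72647391-72648939, had signals of 2491 and 2149, with peaks in both molars as well. The best ranked region in all 7 libraries away from the start overlapped the neighbours Elmod3 and Retsat, at chr6:72597754-72599443. A strongest region that agreed within each replicated group and differed between them was found at 2 genes of the set, Tcf7 and Tcf7l1. These were 2 of the 7 members with a peak in all 4 of these libraries, against 13.7% of the 16567 genes with such peaks. This measure was chosen after the values were seen.

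Tcf7l2 (chr19:55741797-55933659, plus strand) had more peaks in Sox2-positive cells once list lengths were equal. Full lists gave 24 and 12 in ectoderm, 13 and 12 in sorted Sox2-positive cells, 21 in incisor, 24 in lower molar and 26 in upper molar. Equal lists gave 9 and 7 against 11 and 12, without overlap, and 11, 14 and 14 in whole teeth, so that every postnatal library exceeded both ectoderm libraries. Despite fewer peaks, the equal ectoderm lists covered 8.88 and 6.29 kb of the window against 5.75 and 5.77 kb in Sox2-positive cells. Part of the difference in equal-list counts lay at sites that ectoderm held on full lists. The regions chr19:55722327-55723001 and chr19:55909011-55909823 had peaks in both full ectoderm lists. On equal lists neither had an ectoderm peak, and both had one in every postnatal library.

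Both replicates of each group had peaks at the main Tcf7l2 start (chr19:55741164-55742175), with signals of 2681 and 2102 in ectoderm, 1010 and 1598 in Sox2-positive cells and 2039 to 2219 in whole teeth. Of its 39 regions on full lists 2 were Sox2-positive-only, against 5.9% of all autosomal regions, and both were also open in all 3 whole teeth. The better ranked of these 2, chr19:55876446-55877103, lay 135 kb inside the gene and kept its peak in all 5 postnatal equal lists. On equal lists 6 of 20 regions were Sox2-positive-only, against 12%, some of them sites with an ectoderm peak on full lists. The region just past the internal start, chr19:55895417-55897480, was the strongest of ectoderm replicate 1, with a single peak of 3167. Ectoderm replicate 2 had a peak of 529 up to base 55895736 and another of 1481 from base 55895915. Sox2-positive replicate 1, incisor and both molars had signals of 276 to 386, from peaks that ended between bases 55895662 and 55895717. They thus had no peak in the larger part of the region, and Sox2-positive replicate 2 had none in any part. No library had a peak over the 250 bases before that internal start. The best ranked ectoderm-only region, chr19:55754200-55754724, was also open in all 3 whole teeth, and the best ranked region of all 7 libraries away from the start was chr19:55880538-55881281.

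Axin2 (chr11:108917828-108950783, plus strand), a scaffold of the complex that degrades beta-catenin, had one dominant region. The start region chr11:108919668-108922743 was the strongest of the window in all 7 lists, with signals of 5362 and 4920 in ectoderm, 2063 and 3645 in sorted Sox2-positive cells, 6283 in incisor, 5707 in lower molar and 5564 in upper molar. The window held 14 and 10 peaks in ectoderm, 8 and 4 in sorted Sox2-positive cells, 10 in incisor, 11 in lower molar and 9 in upper molar. Equal lists gave 5 and 6 against 7 and 4, so the separation between the groups was not present at equal length.

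Of 18 Axin2 regions 5 were ectoderm-only and 0 were Sox2-positive-only, against 17.9% and 5.9% of all autosomal regions. On equal lists these were 3 and 2 of 12, against 15.7% and 12%. The best ranked ectoderm-only region, chr11:108928782-108929800, lay 8.43 kb inside the gene with signals of 2090 and 952 and no peak in any postnatal library. A region 15.0 kb inside, chr11:108935386-108935957, had peaks in both Sox2-positive libraries (264 and 203) and in ectoderm replicate 1 (475), and none in any whole tooth. It was the exception among the 40 regions of the gene set that both Sox2-positive lists held: the other 39 were also in whole incisor. Over all autosomal regions 4.39% of those in both Sox2-positive libraries were not in incisor. The best ranked region of all 7 libraries away from the start was chr11:108946916-108948220, with signals from 427 to 1116.

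Dkk1 (chr19:30545876-30549496, minus strand), a secreted antagonist that binds the LRP5 and LRP6 co-receptors, had few peaks. There were 5 and 2 in ectoderm, 0 and 1 in sorted Sox2-positive cells, 5 in incisor, 3 in lower molar and 4 in upper molar. On equal lists there were 1 and 1, 0 and 1, 1, 2 and 2, and the replicated groups overlapped. The peak over the start was broad in ectoderm, at 1610 and 1733 bp with signals of 2469 and 2144. It was 351 bp wide with a signal of 327 in Sox2-positive replicate 2, 929 bp in incisor, 478 bp in lower molar and 767 bp in upper molar. The 4 core matches in the Dkk1 sequence lay under this peak in each of those 6 libraries. Inside the gene a separate region, chr19:30546864-30547530, was found in the 3 whole teeth only and was the strongest of both molar lists (1102 and 1172). The one ectoderm-only region, chr19:30554317-30554834, lay 4.82 kb upstream with signals of 752 and 243, and upper molar had a peak there too.

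Dkk2 (chr3:132085266-132180304, plus strand), a related secreted WNT modulator, was open over its start in ectoderm alone. Its window held 6 and 5 peaks in ectoderm, 4 and 2 in Sox2-positive cells and 4 in each whole tooth. Equal lists gave 3 and 5 against 2 and 2, without overlap. The region over the start, chr3:132085109-132086413, had signals of 934 and 756 in ectoderm and no peak in any postnatal library, and 1 of the 2 ectoderm peaks remained on equal lists. The flanking regions chr3:132083938-132084377 and chr3:132087008-132087522 were present in 6 and 7 libraries. On full lists the 250 bases before the Dkk2 start were overlapped in both ectoderm libraries and in no postnatal library, as in 2.8% of promoter windows. A region 52.2 kb inside the gene, chr3:132137485-132138408, showed the opposite: it had signals of 1432 and 655 in Sox2-positive cells, 892 in incisor, 783 in lower molar and 757 in upper molar, and no peak in ectoderm. It was the strongest region of all 5 postnatal lists.

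Sostdc1 (chr12:36314169-36318452), also called ectodin or Wise, encodes a secreted inhibitor of both BMP and WNT signals. Its window held 8 and 2 peaks in ectoderm, 3 and 4 in sorted Sox2-positive cells, 3 in incisor, 6 in lower molar and 7 in upper molar. With equal lists there were 2 and 2 in ectoderm, 3 and 4 in Sox2-positive cells and 3 in each whole tooth, so all 5 postnatal libraries were above both ectoderm libraries. On equal lists the window held 3 regions, 2 of them in all 7 libraries. The other was chr12:36301977-36303427, which lay 10.7 kb outside the lower-coordinate end of the gene. It had signals of 1821 and 580 in Sox2-positive cells, 1581 in incisor, 3270 in lower molar and 3848 in upper molar, and no peak in ectoderm. It was the strongest region of both molar lists, of incisor and of Sox2-positive replicate 1. The region over the lower-coordinate gene end, chr12:36313080-36314963, and one inside the gene, chr12:36317005-36317749, had a peak in all 7 full and all 7 equal lists.

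Rspo3 (chr10:29453106-29535867) encodes an R-spondin, which raises WNT receptor levels by way of LGR receptors. It had 4 and 4 peaks in ectoderm, 0 and 2 in sorted Sox2-positive cells, 2 in incisor, 2 in lower molar and 3 in upper molar. Equal lists gave 2 and 3, 0 and 2, 0, 0 and 1. The region over the higher-coordinate end, chr10:29535382-29536249, had signals of 1083 and 715 in ectoderm, 235 in Sox2-positive replicate 2, 339 in incisor, 291 in lower molar and 398 in upper molar, and no peak in Sox2-positive replicate 1. Its 2 ectoderm-only regions had no peak in any tooth. The signals were 455 and 276 at chr10:29470564-29470871, and 314 and 361 at chr10:29534124-29534839, which alone kept a peak on equal lists, in ectoderm replicate 2. Sox2-positive replicate 1 had no peak anywhere in the Rspo3 window, as at Dkk1.

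**Figure D2:**
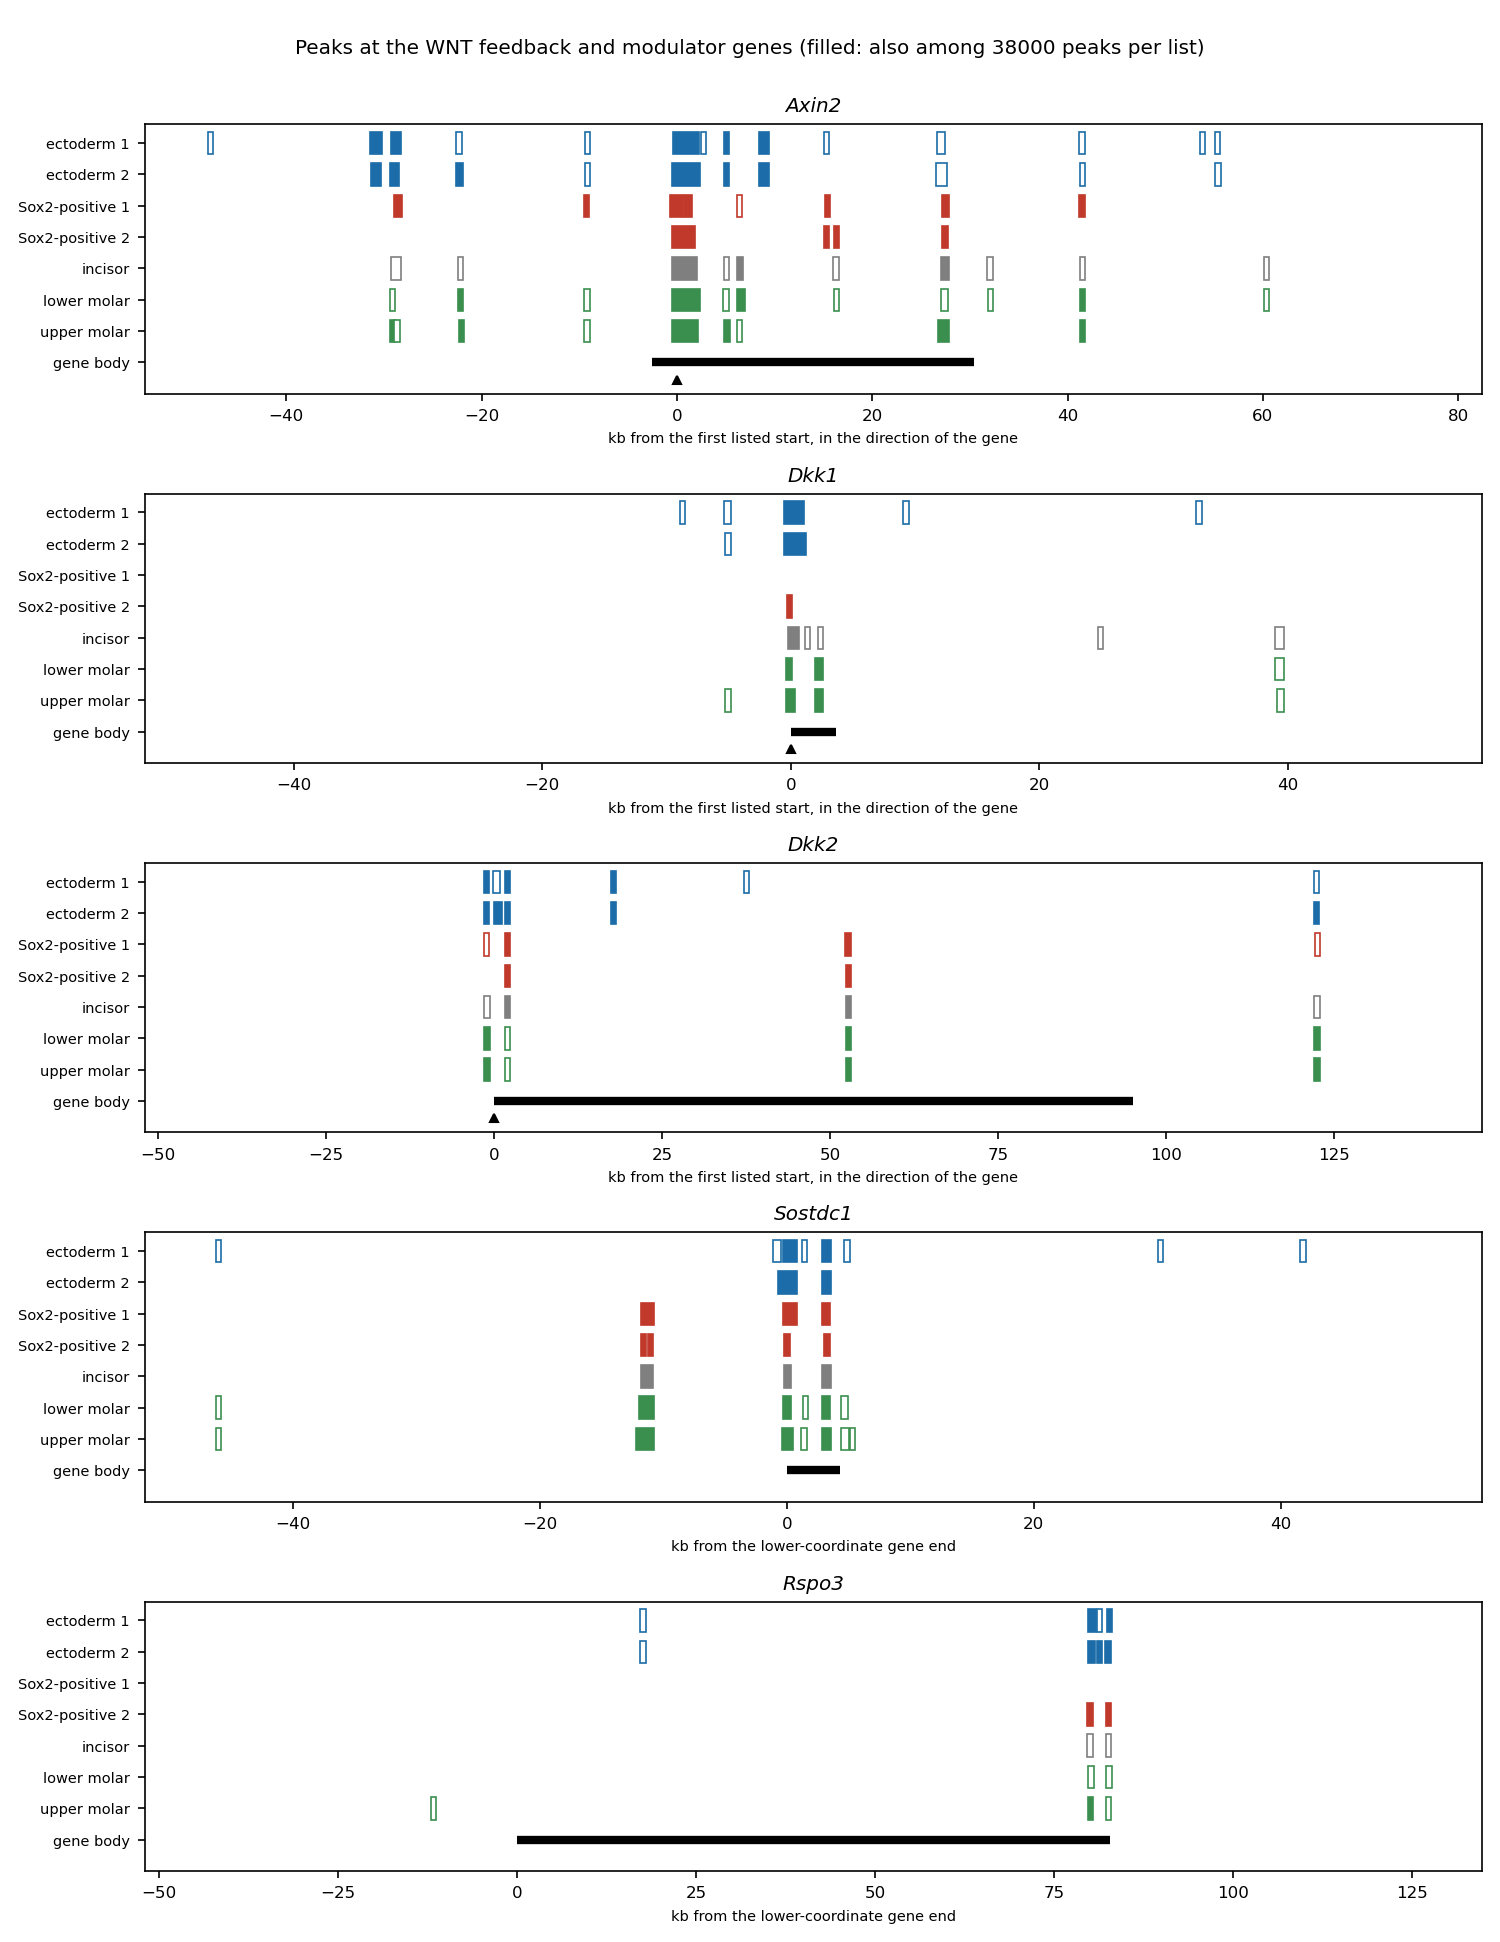
Peaks of each library at Axin2, Dkk1, Dkk2, Sostdc1 and Rspo3 by distance in kb from the listed start (for Sostdc1 and Rspo3 from the lower-coordinate gene end); filled boxes are peaks also in the equal lists, open boxes are in the full list only, the bar is the gene body and triangles are listed starts. Narrow peaks are drawn at a minimum width. Sox2-positive replicate 1 has no peak at Dkk1 or Rspo3, and the regions near -11 kb at Sostdc1 and 52 kb at Dkk2 are open in the 5 postnatal libraries only.

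Counted over the set, 6 of 9 genes had more peaks in both ectoderm than in both Sox2-positive libraries on full lists (Lef1, Tcf7l1, Axin2, Dkk1, Dkk2 and Rspo3), against 45.8% of genes, and 0 had the reverse, against 3.39%. On equal lists 3 had more in ectoderm (Lef1, Tcf7l1 and Dkk2), against 22.9% of genes, and 3 had more in Sox2-positive cells (Tcf7, Tcf7l2 and Sostdc1), against 20% of genes. The 9 genes are too few to say whether these counts differ from the background, which was not tested. For Tcf7 the separation was not present when merged regions were counted in place of peaks. Summed over the 9 genes, equal lists held 57 and 63 peaks in ectoderm, 50 and 54 in sorted Sox2-positive cells, 53 in incisor, 56 in lower molar and 60 in upper molar.

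**Figure D3:**
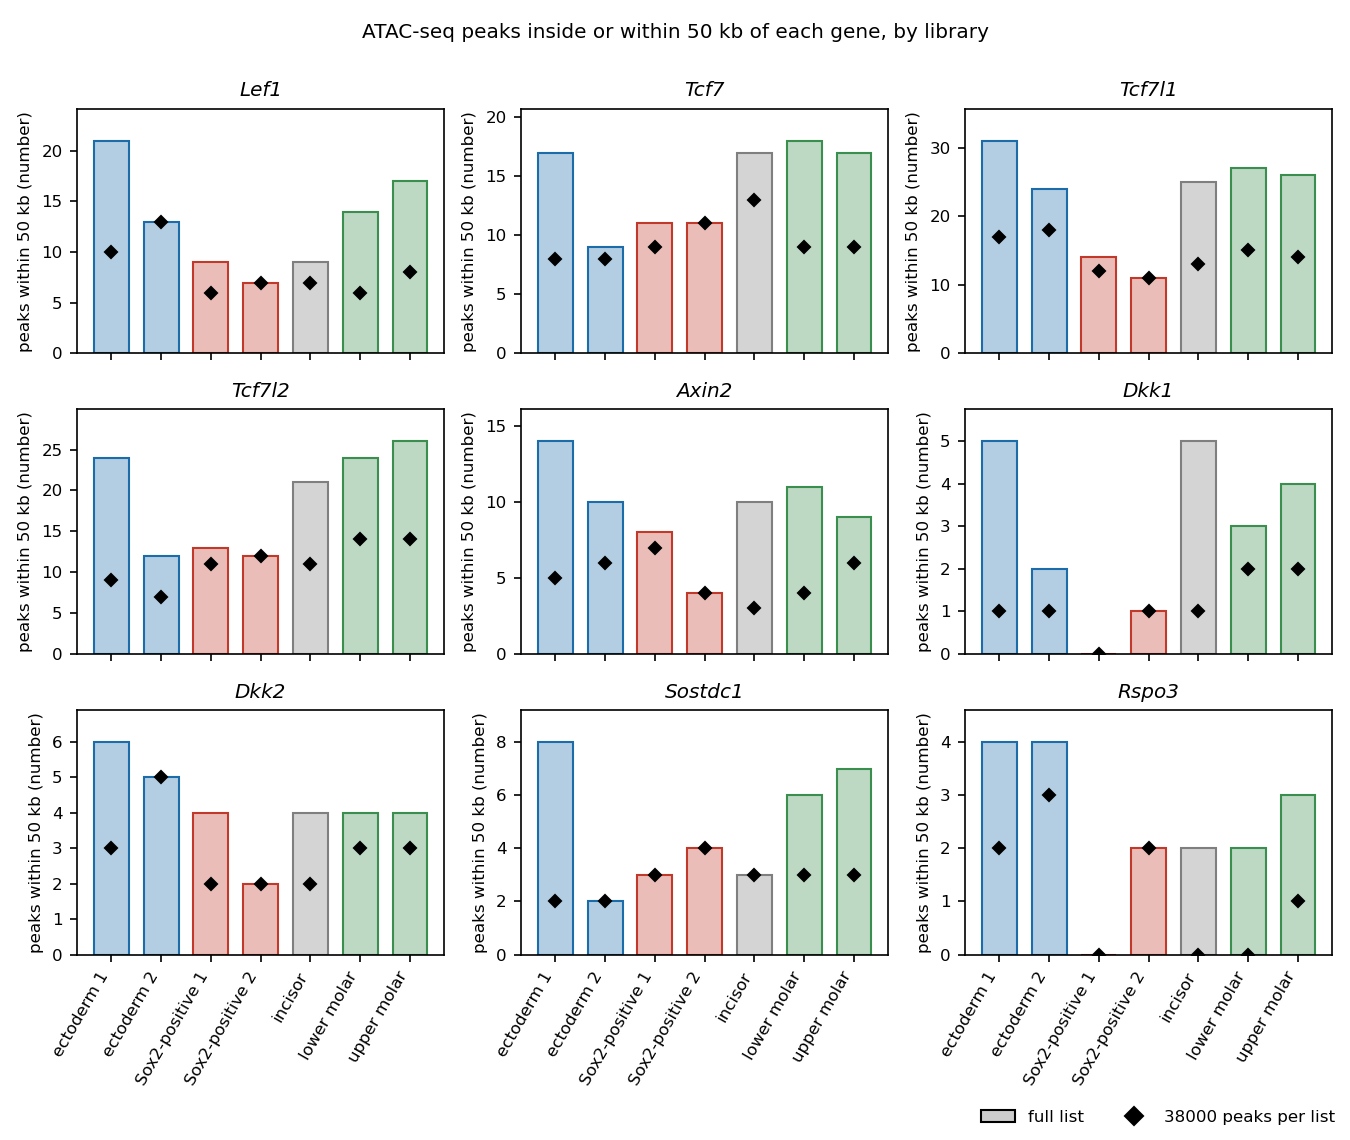
Number of peaks inside or within 50 kb of each gene in each of the 7 libraries; bars are full lists and diamonds are the 38000 peaks per list, and each bar is 1 library, so there are no error bars. At Lef1 both ectoderm diamonds (10 and 13) stand above the 5 postnatal ones (6 to 8), and at Tcf7l2 both (9 and 7) stand below them (11 to 14).

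Gene starts were mostly open everywhere. A peak within 1 kb of a listed start (of either gene end for Sostdc1 and Rspo3) was found in all 7 libraries at 6 of 9 genes, against 55.7% of genes. Dkk1 and Rspo3 lacked one in Sox2-positive replicate 1 and Dkk2 in replicate 2. On equal lists 5 of 9 genes kept one in all 7 libraries, against 51.4%: Lef1, Tcf7l1, Tcf7l2, Axin2 and Sostdc1.

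Of the 182 regions 34 were ectoderm-only, against 17.9% of all autosomal regions, and 10 were Sox2-positive-only, against 5.9%. As shares of the 182 these were 18.7% and 5.49%, close to the background. On equal lists they numbered 18 and 16 of 110 regions, 16.4% and 14.5%, against 15.7% and 12%. Regions in all 7 libraries numbered 26 (14.3%, against 14.2%), and these were also all the regions shared by the 4 libraries of the replicated groups (against 14.7%). On equal lists 16 were in all 7 (against 19.2%) and 19 in those 4 (against 21.7%). Regions in all 5 postnatal libraries and neither ectoderm library numbered 9 (against 4.61%). Tcf7 held 4 of these, Tcf7l2 2 and Tcf7l1, Dkk2 and Sostdc1 1 each. On equal lists they numbered 12 (against 6.29%). Tcf7l2 then held 5, Tcf7 3, Tcf7l1 2 and Dkk2 and Sostdc1 1 each. Regions in the 3 whole teeth alone numbered 9 (against 3.94%), 4 at Tcf7l1, 3 at Tcf7l2 and 2 at Dkk1, and 2 on equal lists (against 1.77%).

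Regions within 1 kb of a listed start, or of either gene end for Sostdc1 and Rspo3, were 17 of the 182. Among them were 1 of 34 ectoderm-only and 0 of 10 Sox2-positive-only regions. The gene body was touched by 114 of the 182, by 22 of the 34 and by 8 of the 10. The annotation used gives no exons, so exonic and intronic sites are not separated. The 10 Sox2-positive-only regions were all open in whole incisor, and 9 of 10 in all 3 whole teeth, against 78.1% of such regions over the genome. Lef1 held the exception. Of the 34 ectoderm-only regions 19 had no peak in any whole tooth (55.9%, against 65.7%), 10 had one in both molars (against 22.8%) and 5 had one in incisor.

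**Figure D4:**
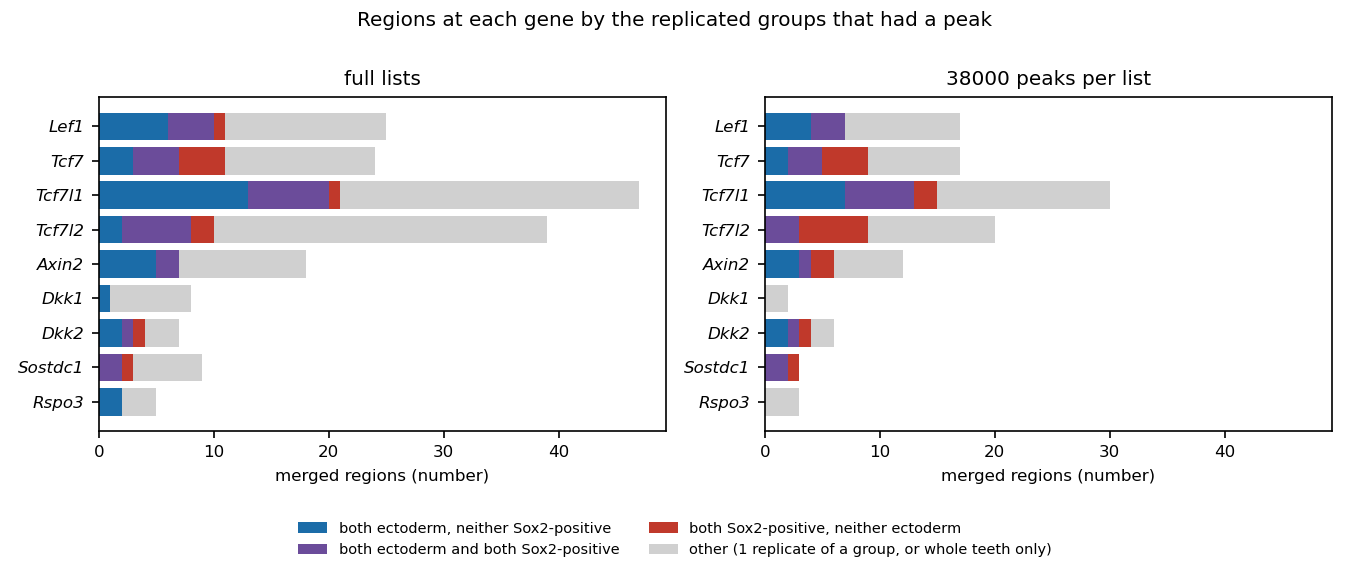
Merged regions at each gene by which of the 2 replicated groups had a peak in both of its libraries, with full lists (left) and the 38000 peaks per list (right); the x axis counts regions. Tcf7l1 has the most regions and the most ectoderm-only regions (13 of 47 on full lists), and Tcf7l2 has 2 ectoderm-only regions on full lists and 0 on equal lists.

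Whole incisor and whole molars, 1 library each, were compared with no replicate check. In all 24 regions were in both molars and not in incisor, against 11.9% of autosomal regions, and 11 were in incisor and neither molar, against 9.24%. On equal lists the counts were 13 and 11 of 110, against 10.8% and 12.2%. Lef1 had 6 molar regions that incisor lacked and 0 of the reverse on full lists, and 0 of either on equal lists. Tcf7l1 had 6 of each on full lists, and 4 and 3 on equal lists. At Tcf7 incisor had 3 regions that both molars lacked and the molars 3 that incisor lacked, and on equal lists 5 and 0.

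Whole incisor was also set against the sorted cells. A peak in incisor and neither Sox2-positive library was found at 31 regions (17% of the 182, against 15.7% of autosomal regions). Tcf7l1 held 10 of these among its 47 regions, Tcf7 7 of 24, Tcf7l2 7 of 39, Axin2 4 of 18, Dkk1 3 of 8 and Lef1 0 of 25. All 6 regions that incisor had at Lef1 were also in a Sox2-positive library. On equal lists 8 regions had this pattern, against 8.12%: 7 of the 31, and 1 that had it on equal lists only.

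Among 61 other genes of the pathway, which span receptors, the degradation complex, co-factors, antagonists and targets, 48 had a start peak in all 7 libraries (78.7%, against 55.7% of genes), and 41 of 60 on equal lists (68.3%, against 51.4%). Axin1, Sost and Cdx1 had none in any library (against 29.3% of genes), Axin1 being judged by its gene ends. A start peak in both ectoderm and neither Sox2-positive library was found at Fzd10, a WNT receptor, and at Sp5 and Sp8, zinc-finger factors that respond to WNT, which is 3 of 61 (4.92%, against 6.04% of genes). The reverse was found at 0 (against 0.397%). At Sp5 there were 5 and 6 peaks within 50 kb in ectoderm against 1 and 1 in Sox2-positive cells on full lists. At Fzd10 there were 13 and 8 against 3 and 1, and at Sp8 7 and 5 against 1 and 2. Equal lists gave 2 and 6 against 1 and 1 at Sp5 and 5 and 6 against 3 and 1 at Fzd10. At Sp8 they gave 1 and 4 against 1 and 2, which overlapped. On full lists both Fzd10 and Sp5 had a start peak in all 3 whole teeth, and Sp8 in none. On equal lists Fzd10 alone kept this pattern (against 3.61%), and Rspo4, an R-spondin, showed the reverse (against 0.992%). More peaks in both ectoderm libraries were found at 30 of 61 genes on full lists (49.2%, against 45.8% of genes), and more in both Sox2-positive libraries at 3 (4.92%, against 3.39%). Equal lists gave 22 and 19 of 60 autosomal genes (36.7% and 31.7%, against 22.9% and 20%).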

How the data were processed

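ATAC-seq libraries were made with the Omni-ATAC protocol, per the labels' protocols. Per the submitters' processing notes, Trimmomatic, Bowtie2, deepTools and Genrich were used with build mm10. Versions, options and the read shift are not given in the sources used here. The authors deposited 1 peak list per library. Its peak signal (lowest listed 200.001) and its −log10 p are the authors' values with no scaling between libraries, and were used inside single lists, to order or select their peaks. The deposited summit offset was used in an alternative.

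Genes and starts came from RefSeq tables of GRCm38.p6. Of 21883 protein-coding genes 17491 had a listed start, and for the others either gene end was used. Peaks of the 7 lists were joined where they shared 1 bp, with Python 3.11.15 and pandas 2.3.3, in code tested on simulated peaks. Equal lists held 38000 autosomal peaks by −log10 p, ties broken by signal. No p-value was computed, since 2 libraries a group are too few for an exact test.

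Named at each gene were start regions and the best ranked ectoderm-only, Sox2-positive-only and shared distal regions; exceptions are stated. The genes and lists were chosen with earlier results of these data known. One marker of the lists used is not reported here.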

Additional observations from a re-analysis of the deposited data

How the results depend on the processing

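No paired analysis was possible because the labels name no pairs of libraries. The results are counts of peaks and regions that come from no test. All alternatives were planned. Taking 38000 autosomal peaks per list by −log10 p gave 3 members with more peaks in both ectoderm libraries in place of 6, 18 ectoderm-only regions in place of 34, 16 Sox2-positive-only regions in place of 10, and 13 molar regions without incisor in place of 24. The same number by signal gave 3, 22 and 11 for the first, second and last of these. Keeping 50% of each list gave 11 molar regions without incisor and 7 incisor regions without molars in place of 11. Windows of 200 bp around summits gave 19 of the latter. Leaving out 1 replicate at a time gave 38 to 80 ectoderm-only regions, 10 to 16 Sox2-positive-only regions, 6 to 9 members with more peaks in ectoderm and 6 to 8 with a start peak in every remaining library. The 80 regions came without ectoderm replicate 2, where the longest list stood for the group, and the 16 without Sox2-positive replicate 2. The other alternatives stayed within 1.5 times the main counts. Unknown depth limits every statement that a peak is missing.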
